A study of Rattus norvegicus with 4 samples.

Results

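The comparison described here set the 3 footpad skin libraries of days 3, 6 and 9 as a side against the library of day 0, gene by gene, in a rat model of radiation dermatitis, a skin injury seen after radiotherapy. Members were the genes that stood at least 2-fold from day 0 in the same direction in all 3 later libraries, and there were 295 of them among 18957 genes or transcript entries listed. With enough counts in all 3 pairs there were 4973 genes, of which 133 (2.67%) were higher and 162 (3.26%) lower. A pair had enough counts when its higher library held at least 50, and a gene passed when the exact 95% Clopper-Pearson interval of each ratio also excluded 1.

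All 4 samples were skin of the hindlimb footpad from rats of the outbred Sprague Dawley stock. They were read as 21-base digital gene expression tags that each start at a CATG site of a transcript. For 3978 of the 4973 genes with enough counts (80.0%), the most abundant tag came from the site nearest the 3′ end. Per the protocol, 4 irradiations of 10 Gy fell on days 1, 2, 4 and 5 with 9 MeV electrons at 500 cGy/min, so day 0 skin preceded them, day 3 followed the irradiations of days 1 and 2, and days 6 and 9 followed all 4. Not all labels match: for the day 0 sample the description gives collection on day 1, and those of the later samples name a single irradiation day each. Groups follow the titles. The labels give no animal, sex, age, batch or hour of collection. Each day had 1 library, so every difference below is between libraries, intervals cover counting error only, and the 3 later libraries differ in day and in number of irradiations as well as in animal.

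Ionising radiation breaks DNA, and the transcription factor p53 then raises genes that stop the cell cycle, start cell death or feed back on p53 itself. Skin has an epidermis of keratinocytes that mature outward into a cornified barrier rich in keratins and lipids, over a dermis of collagen and elastic fibres made by fibroblasts. Radiation dermatitis is known for loss of dividing basal cells, inflammation and later remodelling of the dermis.

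The tags that carried the largest counts for the leading genes are shown because each value below is a count of such tags. CATG is in capitals, and the sequences are those of the deposited files.
Ccng1: CATGctttgggtacacctttc
Mdm2: CATGggtattattttcataca
Col1a1: CATGgactttggaaaacattt
Sparc: CATGcgaactctcacagtgat
Krt24: CATGgaactgaggcgcacagt
Fdps: CATGgctggaattgatgggga
Scap: CATGgtattggccagtggagg
The Ccng1 tag held 95.1% of that gene's counts over the 4 libraries, the Krt24 tag 97.7% and the Scap tag 98.5%, while the Mdm2 tag held 49.1% and the Col1a1 tag 69.1%. Counted from the 3′ end, the Mdm2, Col1a1 and Ccng1 tags came from sites 7, 5 and 2 and the other tags shown from the nearest site.

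The day 0 library stood apart from the others in ways that its depth did not show. Gene counts were close, from 1952921 to 1982608 in a library, on 14972 to 15608 genes. Eif2s3y, a Y-linked translation factor gene, had 0 counts on day 0 and 118, 92 and 130 on days 3, 6 and 9, and the Y-linked demethylase gene Kdm5d had 0, 25, 36 and 26. Ddx3y, a Y-linked helicase gene, had 1029, 739, 469 and 870 counts, and its tags may be shared with its near-identical X-linked copy. The day 0 library therefore differed from the later 3 in Y-linked tags as well as in irradiation, and animal and treatment cannot be told apart.

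A second difference lay in the mitochondrial sequence. Among tags that differ by 1 base, 10 pairs swapped completely: 1 form made up at least 95% of the pair on day 0 and the other at least 95% in each later library. Of these pairs, 7 stood in entries described as subunits of cytochrome oxidase, a respiratory enzyme with mitochondrially encoded core subunits, and 3 stood in no gene. The 2 pairs with the most copies on day 0 are shown, with the base that differs in capitals and positions counted from 1 at the 5′ end of the tag.
Subunit I, form of day 0: catggatgccccccaccCtac
Subunit I, form of later days: catggatgccccccaccTtac
Subunit II, form of day 0: catgagccGtcccttcactag
Subunit II, form of later days: catgagccAtcccttcactag
The subunit I pair differs by C18T, and its first form had 5387, 3, 3 and 6 copies on days 0, 3, 6 and 9 against 0, 36837, 17768 and 31532 of the second. The subunit II pair differs by G9A, with 3606, 2, 2 and 3 copies against 2, 4345, 3960 and 6029. These 2 forms of subunit II stand in separate entries, which were listed at 3846, 298, 264 and 423 counts and at 2, 4413, 4006 and 6101. Summed, the entries held 3848, 4711, 4270 and 6524 counts, or 1.23, 1.12 and 1.72 times day 0, and passed the rule on no day. The subunit I pair did not level out in this way. With both forms summed it was 6.89, 3.32 and 5.94 times day 0 on days 3, 6 and 9. The entry that holds both of its forms was 7.14-fold, 3.55-fold and 6.14-fold higher. In all, 6 of the 10 pairs touched 5 of the 295 genes.

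**Figure D1:**
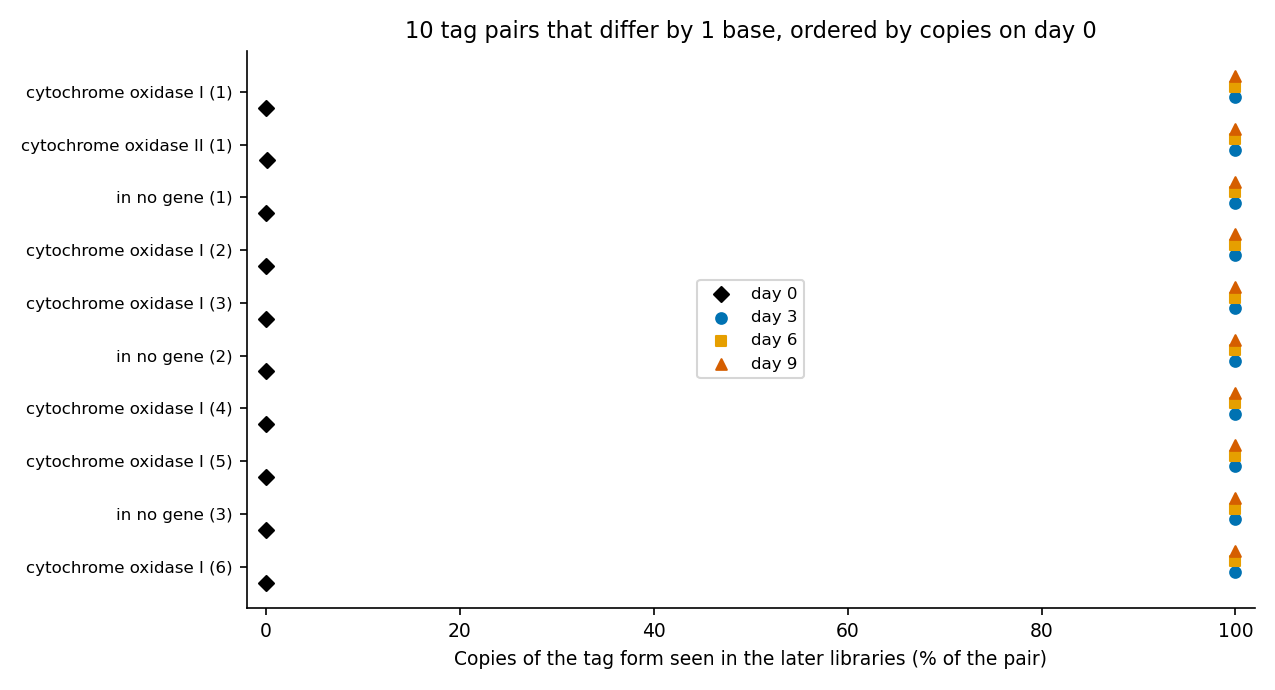
Share of the later tag form, in percent of both forms, for each of the 10 tag pairs that differ by 1 base (rows) in each library (points). All 10 pairs sat near 0% on day 0 and near 100% on days 3, 6 and 9, as the rule that chose them requires.

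Formal tests over the 4 libraries differed in their calls. edgeR's quasi-likelihood test, with the 3 later libraries as a group and the lone day 0 library assumed to vary as they do, called 0 of 9876 genes at an adjusted p under 0.05 (0.0%). Unadjusted, 485 were higher (4.91%) and 519 lower (5.26%) at p under 0.05. The lowest adjusted p was 0.0732, for the later-form entry of cytochrome oxidase subunit II. DESeq2 called 48 genes higher and 17 lower, 46 and 17 of them among the 295. The spread that edgeR estimated among the later libraries was a coefficient of variation of 0.331, and it holds day and animal together. In simulated data with that spread the size rule also took genes that had been given no change, so a gene can be among the 295 without a difference beyond the spread between libraries.

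The counts of genes by size depended on how many libraries had to pass. On single days, 464 genes were higher (8.69%) and 404 lower (7.56%) on day 3, 366 (6.91%) and 725 (13.7%) on day 6, and 534 (9.99%) and 620 (11.6%) on day 9. Without the day 3 library the count in the remaining 2 was 208 higher and 280 lower, without day 6 it was 217 and 228, and without day 9 it was 216 and 256. These 3 comparisons share the day 0 library, so a low or high count in that library alone puts a gene on the same side of all 3. Day 0 lay outside the range of the 3 later libraries for 3248 of the 4973 genes. It lay below that range for 1353 and above it for 1895. By rank alone, any library of so small a set is the lowest or highest for a large share of genes. Whether 3248 exceeds that share was not tested, so no conclusion about day 0 is drawn from the count.

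**Figure D2:**
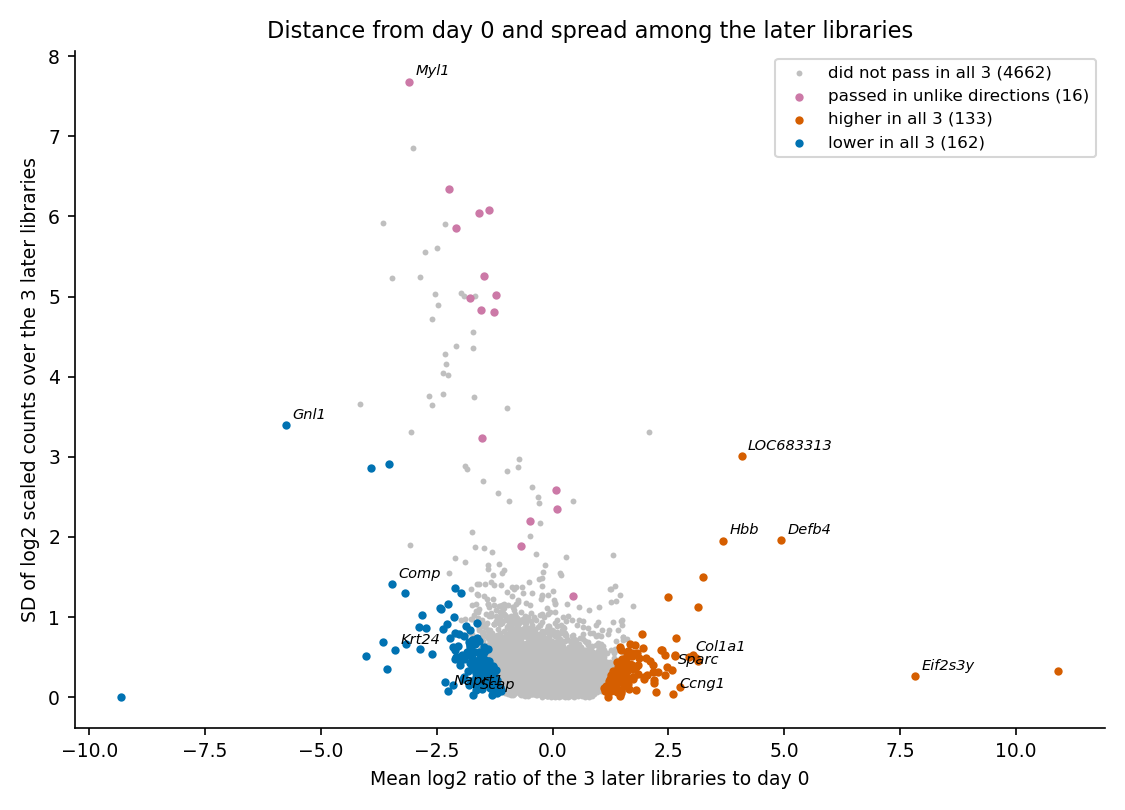
Mean log2 ratio of the 3 later libraries to day 0 (x) against the SD of their log2 scaled counts (y), for each of the 4973 genes with enough counts; colours give the size rule. Ccng1 and Scap lie far from day 0 with little spread, while Defb4, Hbb and LOC683313 spread widely.

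The median spread among the later libraries was close to that of all genes for the higher genes and wider for the lower ones. The median SD of log2 scaled counts over the 3 later libraries was 0.28 for the higher genes and 0.39 for the lower ones, beside 0.29 for all with enough counts. Fewer than 50 counts in some later library were found for 114 of the lower genes and 0 of the higher. Counting error is larger at such counts, and its part in the wider spread was not tested. The highest later library was under 1.5 times the lowest for 71 of the 133 higher genes and 57 of the 162 lower ones, and under 2 times for 110 and 104. The median of the smallest of a gene's 3 folds was 2.35 on both sides, and the smallest was at least 3 for 31 higher and 30 lower genes. At the edge, Ccl6 was just inside at 2.00 and Myeov2 just outside at 1.99 among the higher genes, and Zfp652 at 2.00 and Plcb3 at 2.00 (1.9991 before rounding) among the lower. Day 3 lay furthest from day 0 for 64 of the higher genes, day 6 for 28 and day 9 for 41, while among the lower genes these counts were 28, 79 and 55. The distance grew from day to day for 22 higher and 28 lower genes and shrank for 34 and 23.

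Among p53 target genes, 5 were higher in all 3 later libraries. Ccng1, which encodes cyclin G1 (gene ID 25405), had 303 counts on day 0 and 1885, 1776 and 1831 on days 3, 6 and 9. It was 6.26-fold (5.55 to 7.10), 5.90-fold (5.22 to 6.69) and 6.13-fold (5.43 to 6.95) higher, with an SD of 0.04 on the log2 scale over the later libraries, and the 3 intervals overlapped. Mdm2, the ligase that degrades p53, had 30, 129, 125 and 164 counts and was 4.15-fold to 5.48-fold higher. Bbc3, the cell death gene PUMA, had 23, 204, 194 and 81, with day 9 below the other later libraries at 3.52-fold (2.23 to 5.95) above day 0. Bax, the pore-forming cell death protein gene, had 38, 128, 110 and 118 counts and was 3.36-fold, 2.89-fold and 3.12-fold higher, so its later libraries lay close together.

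Cdkn1a, which encodes the cell cycle inhibitor p21 (gene ID 114851), had 291, 1197, 1303 and 947 counts and was 4.14-fold, 4.51-fold and 3.30-fold higher. Its counts lay in 2 tags that differ by C17T, with the base that differs in capitals.
Cdkn1a, first form: catgtattttggtcccCtccc
Cdkn1a, second form: catgtattttggtcccTtccc
The first form had 142, 1100, 0 and 397 copies on days 0, 3, 6 and 9 and the second 118, 0, 1206 and 457. Days 0 and 9 thus held both forms and days 3 and 6 a single form each. Summed over both forms the copies were 260, 1100, 1206 and 854, with day 0 below all later libraries. With the most abundant tag alone the mean log2 ratio turned to -0.85, since that tag was absent on day 3.

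Of the 36 p53 targets in the list, 28 were found, 12 had enough counts, 5 of these were higher in all 3 later libraries and none was lower. Over all 4973 genes with enough counts 2.67% were higher and 3.26% lower, and each list count below is to be read beside these shares. The p53 list had a median mean log2 ratio of 0.46, beside -0.06 for all genes tested. Plk3, a stress kinase gene of the list, had 132, 31, 62 and 200 counts and so lay on both sides of day 0. Phlda3, a p53-induced inhibitor of Akt signalling, had 246, 653, 687 and 455 counts and missed the rule on day 9. Both were named after their values were seen. Of the 7 DNA repair genes with enough counts none was higher, and Ung, the uracil glycosylase gene, was lower, with 123, 42, 54 and 33 counts.

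Dermal matrix genes held the most members of any list, 9 of the 27 with enough counts, and none was lower. Their summed level was 13436 CPM, the count scaled to the library's gene counts, on day 0 and 59094, 43660 and 40025 on days 3, 6 and 9, and the median log2 ratio of the list was 1.08. Col1a1, a chain of type I collagen (gene ID 29393), had 2001, 22815, 12663 and 12260 counts and was 11.5-fold, 6.37-fold and 6.22-fold higher. Day 3 was thus the highest library, and the exact intervals of days 6 (6.08 to 6.69) and 9 (5.93 to 6.52) overlapped. Sparc, a collagen-binding glycoprotein gene, had 5407, 41424, 29973 and 25980 counts, and Col3a1, of type III collagen, had 2909, 13937, 14463 and 11431. Each of these genes stood at least 3.99-fold above day 0 in every later library.

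Genes of elastic fibres and of crosslinking lay on the same side. Eln, which encodes elastin, had 175, 869, 792 and 796 counts, with an SD of 0.07 on the log2 scale over the later libraries. Lox, the enzyme that crosslinks collagen and elastin, had 23, 215, 106 and 134 and was 9.24-fold higher on day 3 but 4.57-fold on day 6. The microfibril genes Mfap2 and Mfap4, the proteoglycan gene Vcan and the matricellular gene Postn, all named after their values were seen, were the remaining members, with smallest folds from 2.15 to 2.41. On single days 21 members of the list were higher on day 3, 13 on day 6 and 12 on day 9, with none lower.

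Matrix proteases and their inhibitors had 2 of 11 members higher. Mmp2, a gelatinase gene, had 975, 5655, 4967 and 3688 counts and was 5.84-fold, 5.13-fold and 3.84-fold higher, and the inhibitor gene Timp2 had 1140, 3272, 2864 and 2528. Outside the list, Mmp27, another metalloproteinase gene, had 32, 242, 152 and 154. Bmp1, which trims procollagen, had 33, 151, 109 and 153 and was the 1 of 7 collagen processing genes that passed. Of 17 growth factor, TGF-beta and Wnt genes 2 passed, both higher: Igfbp4, a binding protein of insulin-like growth factors, had 90, 243, 243 and 257 counts, and Wisp2 had 61, 317, 287 and 143. On single days 0, 3 and 3 members of that list were lower on days 3, 6 and 9.

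Few members of the fibroblast and macrophage lists passed in all 3 later libraries. Of 10 fibroblast and myofibroblast genes with enough counts 1 passed, Twist1, a mesenchymal transcription factor gene with 60, 204, 161 and 155 counts. That list summed to 3155 CPM on day 0 and to 4588, 3497 and 3331 on days 3, 6 and 9, with Fap and Cd34 at 0 on day 0. On single days 6, 3 and 2 of its members were higher and 0, 2 and 1 lower. Macrophage genes summed to 623 CPM on day 0 and 973 to 1422 later, with 1 of 8 past the rule and none at 0 on day 0. That member was Cd163, a scavenger receptor gene, with 22, 173, 110 and 76 counts. On days 3, 6 and 9, 5, 2 and 3 members of the macrophage list were higher and 0 lower, with list medians of 1.00, 0.68 and 0.66. The part of either cell type in the matrix result was not tested, and in whole skin fewer cells of a type and less RNA per cell cannot be told apart. The beta-globin gene Hbb, a marker of red blood cells, had 35, 1510, 104 and 579 counts. Its folds were 42.9, 2.97 and 16.6, so day 6 lay far closer to day 0 than days 3 and 9 did.

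**Figure D3:**
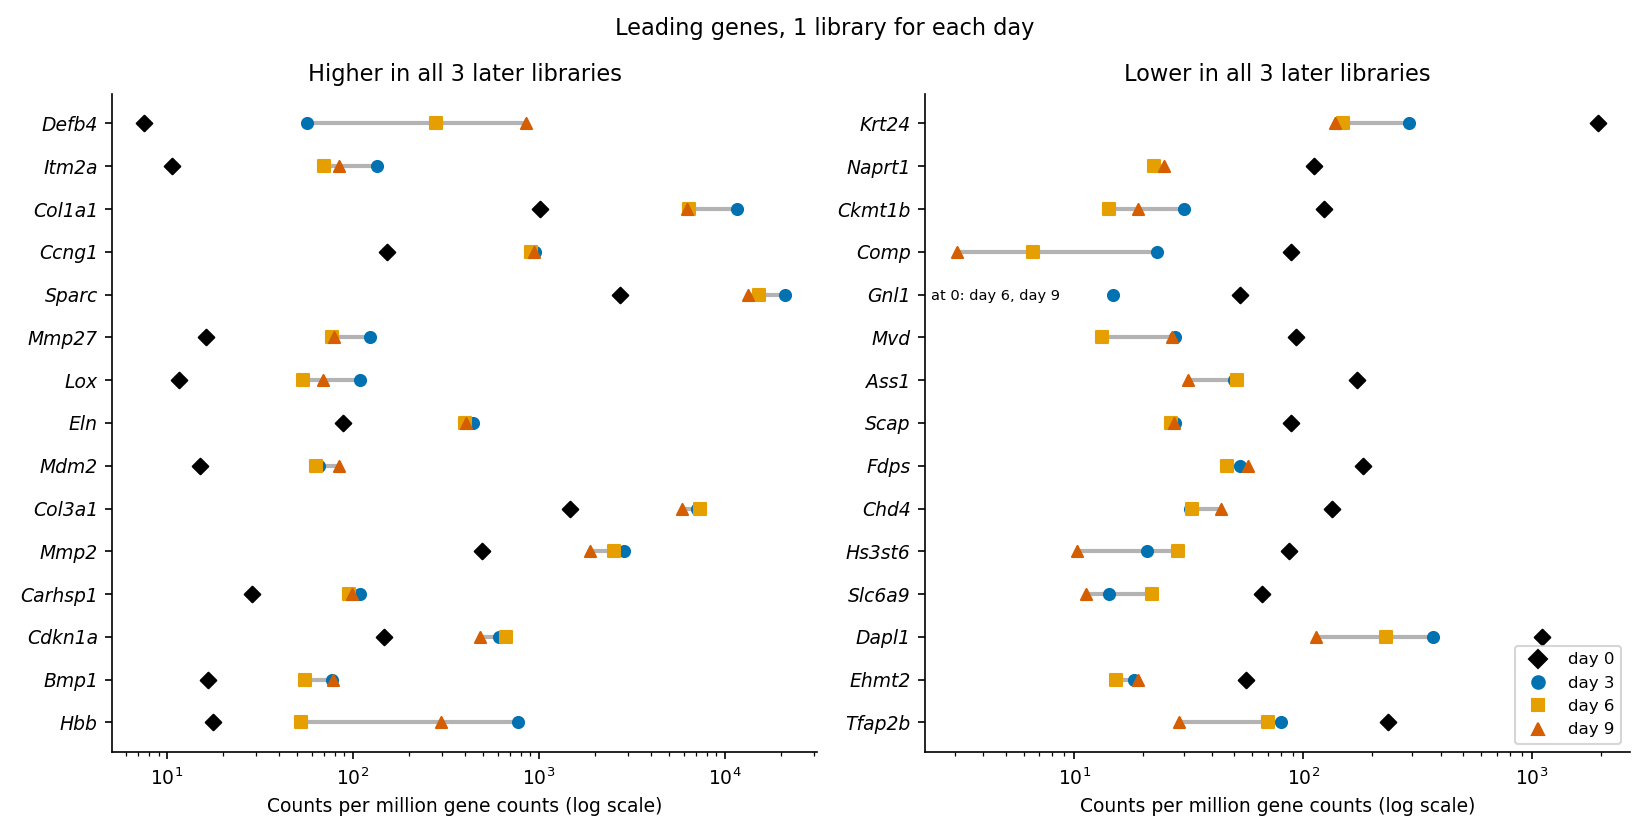
Scaled counts in CPM (log axis) of the 15 leading higher (left) and 15 leading lower (right) genes in each library; grey bars join the lowest and highest later library. Day 0 lies outside the later libraries in every row because the genes were chosen that way. Defb4, Hbb, Comp and Gnl1 have the longest bars or libraries at 0.

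A few genes of injured epidermis passed on all 3 days but by very unlike amounts. Defb4, an antimicrobial beta-defensin gene, had 15, 112, 551 and 1669 counts and was 7.31-fold (4.37 to 13.9), 35.8-fold (22.2 to 66.6) and 109-fold (68.3 to 202) higher. Il36g, an epidermal cytokine gene, had 29, 70, 160 and 393 counts, and LOC683313, which the files describe as keratin 6A, had 432, 1071, 5316 and 66660. Each later library exceeded the earlier one for these genes, and the SD over the later libraries was 1.96, 1.25 and 3.01 on the log2 scale. Of the 7 stress keratin and alarm genes with enough counts 2 were higher in all 3, while 3, 3 and 11 members with enough counts on the single day were higher and 2, 2 and 0 lower on days 3, 6 and 9. The list's median log2 ratio was -0.10, 0.01 and 3.51 on those days, so the median lay near day 0 on days 3 and 6. Krt17, a stress keratin gene, had 499, 246, 262 and 4743 counts. Arg1, the arginase gene, had 12, 58, 71 and 383 counts and, like LOC683313 and Krt17, was named after its values were seen.

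Other genes of the leading set were spread over unlike roles. Itm2a, a membrane protein gene, had 21, 266, 137 and 164 counts, and Carhsp1, an RNA-binding protein gene, had 57, 214, 188 and 194. Among oxidative stress genes 1 of 9 passed, Txnrd1, a thioredoxin reductase gene with 112, 244, 277 and 301 counts. The complement protease gene C1s had 185, 379, 520 and 415 counts and was the 1 of 9 complement and coagulation genes that passed. Fabp4, a fatty acid carrier of adipocytes, had 132, 516, 302 and 470 and was the 1 of 10 adipocyte genes that passed. The adipocyte list as a whole did not stay on 1 side: it summed to 3711 CPM on day 0 and to 6161, 1551 and 6463 later, with 0, 2 and 3 members lower on days 3, 6 and 9.

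On the lower side, Krt24, a keratin gene of differentiating epidermis, had 3841 counts on day 0 and 573, 295 and 269 later, or 6.65-fold (6.09 to 7.28), 12.9-fold (11.5 to 14.6) and 14.0-fold lower. It was the 1 of 19 suprabasal and cornified layer genes that passed, beside 3.26% lower of all genes with enough counts. The list's summed level, 35849 CPM on day 0, lay within the later range of 25010 to 40683. Krt10, the main acidic keratin above the basal layer, had 13717, 4763, 10006 and 5777 counts and missed the rule on day 6. The basal keratin gene Krt14 had 295, 144, 319 and 353, on both sides of day 0. Tfap2b, a transcription factor gene, had 463, 157, 138 and 56, and Dapl1, an epithelial differentiation gene, had 2190, 728, 453 and 223.

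Several enzymes of sterol synthesis were lower. Of 19 cholesterol and barrier lipid genes with enough counts 4 were lower in all 3 later libraries and none was higher, with a list median of -0.51. Fdps, which makes farnesyl pyrophosphate, had 363, 104, 91 and 112 counts and was 3.45-fold, 3.94-fold and 3.18-fold lower. Mvd, which makes its isoprenoid precursor, had 184, 54, 26 and 52, with day 6 the lowest. Hmgcs1, an early enzyme of the pathway, had 989, 364, 383 and 259, and Dhcr7, the last enzyme, had 305, 115, 113 and 51, both furthest from day 0 on day 9. Scap, the escort protein that brings the sterol-sensing transcription factors to the Golgi, stood outside the list with 176, 54, 52 and 53 counts. Its folds of 3.21, 3.34 and 3.25 had an SD of 0.03 on the log2 scale. Other members of the list lay closer to day 0: Cyp51 had 154, 138, 120 and 134 counts and Idi1 had 76, 80, 83 and 104, both named after their values were seen.

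Of 11 circadian clock genes with enough counts 6 passed on the lower side and 0 on the higher, and the list median was -0.99. By day, 1, 0 and 0 members were higher and 8, 6 and 7 lower on days 3, 6 and 9. RGD1566380, the symbol in the files for the clock repressor Ciart, had 83, 7, 8 and 22 counts and was 11.1-fold (5.47 to 30.2), 9.75-fold (4.99 to 24.6) and 3.66-fold (2.30 to 6.25) lower. Nr1d1, a nuclear receptor that represses the clock activator genes, had 516, 172, 165 and 231, and the repressor gene Bhlhe40 had 365, 124, 149 and 155. The related repressor Bhlhe41 had 65, 21, 24 and 30, the factor Nfil3 67, 26, 18 and 30, and the output factor Tef 285, 135, 135 and 85. Dbp, another output factor, had 1269, 519, 799 and 858 counts and missed the rule, as did Cry2 with 139, 60, 93 and 59. Bhlhe41, Tef, Dbp and Cry2 were named after their values were seen. Per the labels the rats were kept in a normal day and night cycle, with no hour of collection.

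Of 16 immediate early and heat shock genes, 2 were lower in all 3 later libraries and none higher. By day, 0, 0 and 4 members were higher and 4, 4 and 3 lower on days 3, 6 and 9. The list medians on those days were -0.33, -0.37 and 0.24. Fosb, a rapidly induced transcription factor gene, had 60, 5, 7 and 17 counts, and Klf4, a factor of keratinocyte differentiation, had 2328, 1052, 946 and 1108. With its most abundant tag alone Klf4 had 1417, 545, 403 and 711 and missed the rule on day 9. Fos itself, named after its values were seen, had 56, 44, 43 and 63.

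Genes of ribosome assembly, a list drawn up after the values were seen, numbered 5 of 23 on the lower side and 0 on the higher. The list median was -0.37. By day, 0, 1 and 1 members were higher and 5, 7 and 9 lower on days 3, 6 and 9. Rexo4, a nucleolar exonuclease gene, had 60, 13, 6 and 6 counts, and Ncl, which encodes nucleolin, had 495, 197, 188 and 218. Pes1, of the complex that matures the large subunit, had 135, 55, 53 and 53, an SD of 0.03 on the log2 scale. Srm, the spermidine synthase gene placed in that list, had 289, 83, 38 and 110, with day 6 the lowest library. Among cytosolic ribosomal protein genes, a list drawn up in the same way, 2 of 33 were lower in all 3, beside 3.26% of all genes. These were Rps13 with 3556, 1282, 622 and 1170 counts and Rps19 with 2936, 1286, 686 and 1070. By day, 0, 2 and 2 members were higher and 5, 5 and 10 lower. The list median was -0.46, and the list summed to 73903 CPM on day 0 and to 55297, 58076 and 46478 later. Many ribosomal protein genes have near-identical pseudogenes, so counts of single members are uncertain.

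Further lower genes had unlike roles. Naprt1, an enzyme of NAD synthesis, had 222, 44, 44 and 48 counts, and its most abundant tag alone had 222, 22, 19 and 19. Ass1, of arginine synthesis, had 341, 98, 101 and 61, and Ckmt1b, a mitochondrial creatine kinase gene, had 245, 59, 28 and 37. Chd4, a nucleosome remodeller gene, had 266, 63, 64 and 85, and Ehmt2, a histone H3 methyltransferase gene, had 112, 36, 30 and 37. Slc6a9, a glycine transporter gene, had 131, 28, 43 and 22, and Hs3st6, a heparan sulphate sulphotransferase gene, had 171, 41, 56 and 20. Apoa1bp had 157, 69, 68 and 64 counts, an SD of 0.05 on the log2 scale over the later libraries. Gfra3, a receptor gene of sensory nerve, had 83, 33, 24 and 22 and was the 1 of 4 nerve and Schwann cell genes with enough counts that passed. The rest of that list did not share its direction: the list had medians of 0.44, 0.24 and 0.02 on days 3, 6 and 9 and summed to 529 CPM on day 0 and to 806, 613 and 526 later.

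A few lower genes had wide spreads. Comp, a cartilage and tendon matrix protein gene, had 176, 45, 13 and 6 counts, against the direction of the other matrix genes named above and outside their list. Gnl1, a GTP-binding protein gene, had 105 and 29 counts on days 0 and 3 and 0 on days 6 and 9, which is at least 34.7-fold and 34.5-fold lower against a floor of 3 counts for each library. Sec24c, a vesicle coat gene, had 171, 33, 16 and 81.

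**Figure D4:**
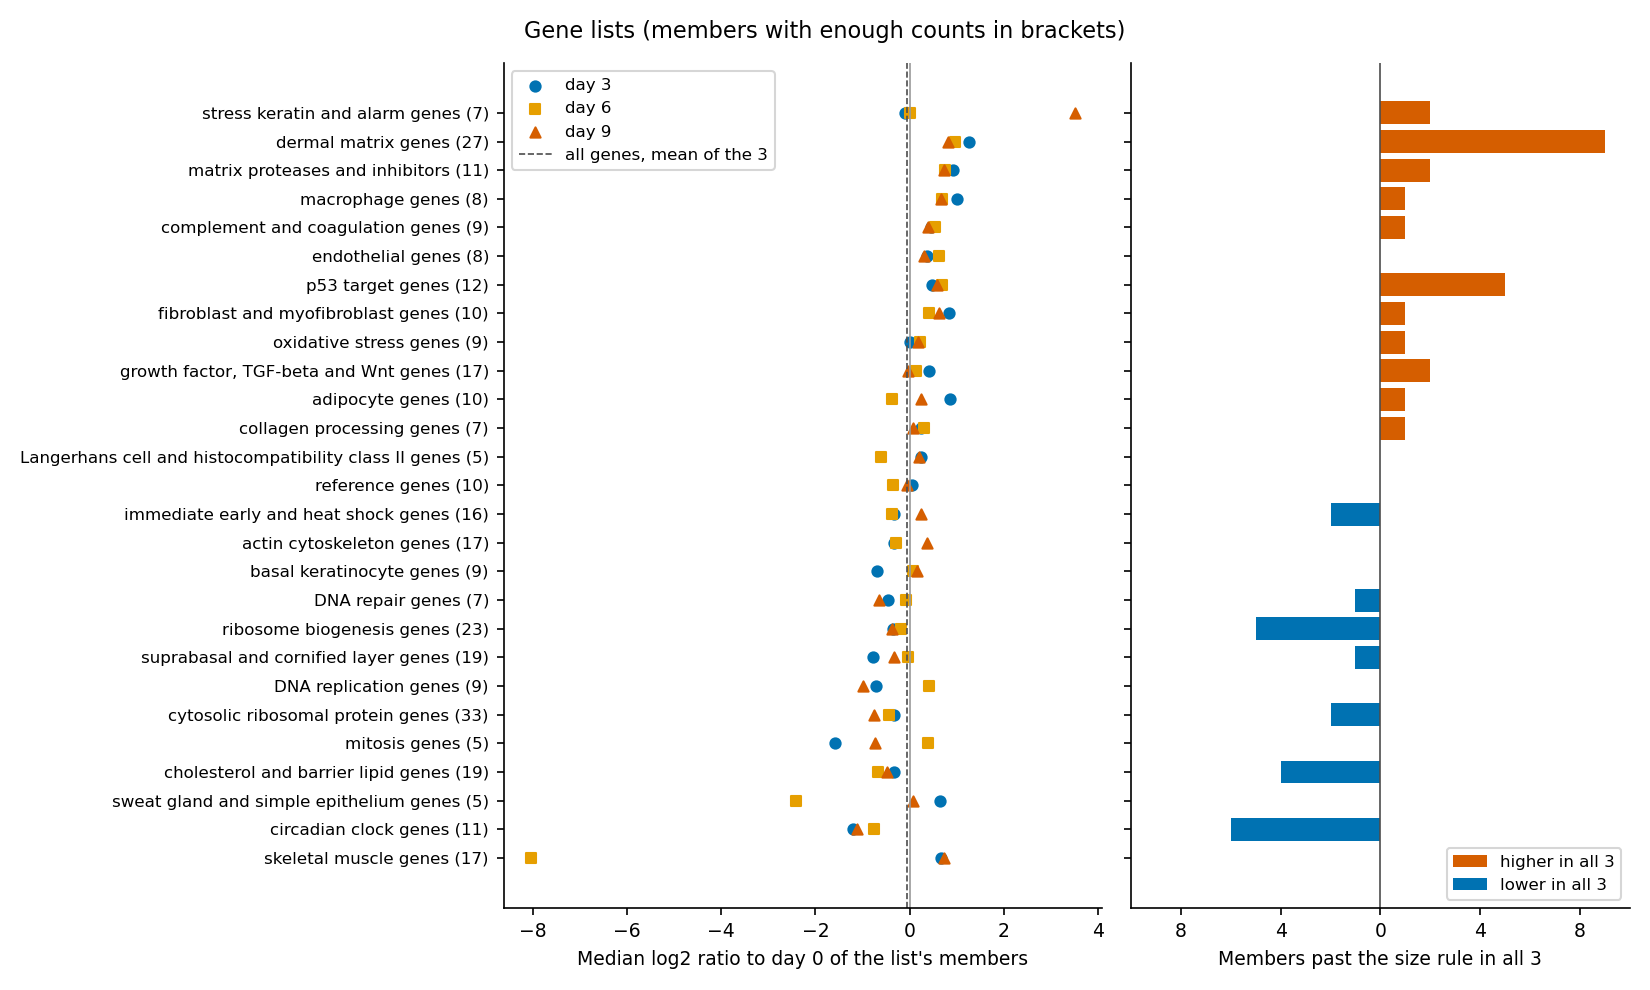
Left, median log2 ratio to day 0 of each gene list by day, over members averaging at least 10 counts; right, number of members past the size rule in all 3 later libraries, in each direction. Dermal matrix genes had 9 members higher and circadian clock genes 6 lower, while skeletal muscle genes had none on either side and a day 6 median of -8.05.

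Lists for mitosis, DNA replication, basal keratinocytes, endothelium, mast cells, T cells, neutrophils, antigen-presenting cells, the interferon response, actin and reference genes had 0 members past the rule in all 3 libraries. Endothelial genes had 2, 3 and 1 members higher and 0 lower on days 3, 6 and 9, with list medians of 0.37, 0.64 and 0.30. The lists leave genes out: Sele, an endothelial adhesion gene, passed with 66, 165, 211 and 287 counts. Milr1, a mast cell receptor gene, passed with 82, 206, 283 and 261. Both stood outside those lists and were named after their values were seen. Mitosis genes had list medians of -1.57, 0.40 and -0.72 on days 3, 6 and 9, and replication genes -0.72, 0.42 and -0.98, so for both day 6 lay on the other side of day 0. Stmn1, a microtubule regulator of dividing cells, had 166, 28, 148 and 37 counts, and Mcm4, a helicase subunit gene, had 104, 13, 31 and 51. Unlike their list medians, both genes lay below day 0 on day 6 too. Sweat gland and simple epithelium genes had 0 of 5 past the rule in all 3 and a day 6 median of -2.41, and no melanocyte gene had enough counts. The reference gene Actb had 3848, 1774, 876 and 2316 counts and was lower by at least 1.64-fold in each later library, while Gapdh had 2515, 2148, 1537 and 2377. In all, 50 of the 295 genes stood in any of the 35 lists.

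In 16 further genes (0.322%) all 3 later libraries passed the rule but in unlike directions, and in 12 of these day 6 alone was lower. The 12 were Ckmt2, Cpt1b, Hfe2, Myh7, Myl1, Myl2, Myot, Myoz2, Pdlim3, Tmod4, Tnni2 and Tnnt1, all genes expressed in striated muscle. Of the 16, 5 stood in the skeletal muscle list. Myl1, a fast myosin light chain gene, had 2021, 5394, 0 and 4705 counts, and Tnnt1, a slow troponin gene, had 375, 1051, 0 and 954. The 27 muscle genes found summed to 3969 CPM on day 0, 7287 on day 3, 70.1 on day 6 and 7095 on day 9. Day 6 therefore held almost none of the muscle tags, and 0 of the 17 muscle genes with enough counts passed on the same side in all 3 libraries.

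The base content of the tags differed between the sides. The median GC content of the last 17 bases of a gene's most abundant tag was 41.2% for the higher genes, 52.9% for the lower ones and 41.2% for all with enough counts. The share of genes lower in all 3 was 1.99% among the 907 genes with 0 to 4 G or C bases there and 5.44% among the 1122 with 9 or 10, and the share higher was 3.64% and 2.23%. When each library's ratios were centred on the median of their class of GC content, a setting chosen after the data were seen, 164 genes were higher and 114 lower, so that 59.0% were higher against 45.1% without centring. The part of tag base content in the lower genes was not tested further.

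**Figure D5:**
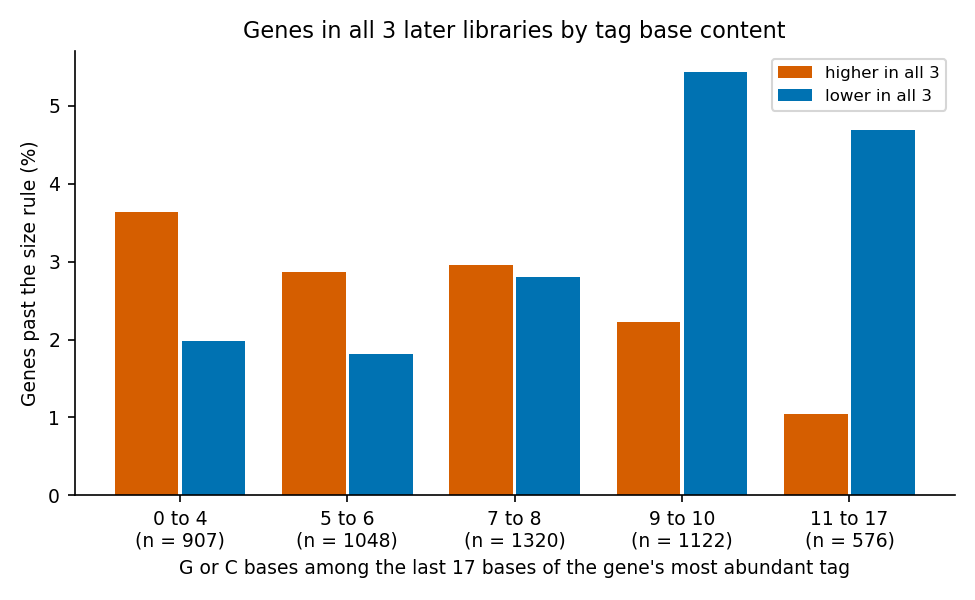
Percent of genes higher or lower in all 3 later libraries (bars), by the number of G or C bases in the last 17 bases of the gene's most abundant tag; n is the number of genes with enough counts. The share lower is 5.44% in the class of 9 to 10 and 1.99% in that of 0 to 4, while the share higher is largest in the latter.

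Promoter sequence was read for the genes with an entry in the RefSeq promoter table of build GRCr8, 72 of the higher and 112 of the lower. In the 250 bases before the start, 10 short motifs were searched on both strands. They were the E-box CACGTG, the NF-Y box CCAAT, the Sp1 box GGGCGG, the sterol response element TCACCCCAC, the TATA box TATAAA, the cAMP response element TGACGTCA and the AP-1 site TGACTCA. The D-box was searched as GTGACGTAA, as TTATGCAA and as TTATGTAA, and no motif of the set contains another. CACGTG, the E-box bound by clock, Myc and related factors, stood in 18 of 112 lower genes (16.1%) and 0 of 72 higher ones. It stood in 329 of 3503 genes with enough counts (9.39%) and in 5.80% of all 27457 promoters. CCAAT stood in 39.3% of the lower, 36.1% of the higher and 36.9% of the genes with enough counts, and GGGCGG in 64.3, 54.2 and 63.0%. The motif shares are descriptions of the letters with no test.

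The lower genes with CACGTG included the clock genes RGD1566380, Bhlhe40, Bhlhe41 and Tef, and also Scap, Ung, Gnl1 and Ehmt2. From the ribosome assembly list they included Pes1 and the spermidine synthase gene Srm. The promoters of 3 of them are shown because they hold the motif in genes of the 2 lists above, with CACGTG in capitals. That of RGD1566380 (chr2:186112247-186112496, minus strand, GRCr8) held 3 matches, 93, 35 and 21 bases before the start; Bhlhe41 (chr4:180569356-180569605, minus strand) held 1 at 48 bases and Srm (chr5:164308752-164309001, plus strand) 1 at 173.
RGD1566380: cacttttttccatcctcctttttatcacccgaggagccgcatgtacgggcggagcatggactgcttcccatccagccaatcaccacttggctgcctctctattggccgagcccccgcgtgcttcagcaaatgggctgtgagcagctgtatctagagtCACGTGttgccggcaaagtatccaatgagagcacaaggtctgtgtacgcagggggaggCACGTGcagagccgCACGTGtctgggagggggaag
Bhlhe41: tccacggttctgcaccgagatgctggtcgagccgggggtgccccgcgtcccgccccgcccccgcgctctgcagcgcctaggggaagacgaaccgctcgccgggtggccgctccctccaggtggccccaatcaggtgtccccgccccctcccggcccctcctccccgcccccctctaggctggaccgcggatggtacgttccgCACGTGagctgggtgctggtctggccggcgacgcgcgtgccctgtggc
Srm: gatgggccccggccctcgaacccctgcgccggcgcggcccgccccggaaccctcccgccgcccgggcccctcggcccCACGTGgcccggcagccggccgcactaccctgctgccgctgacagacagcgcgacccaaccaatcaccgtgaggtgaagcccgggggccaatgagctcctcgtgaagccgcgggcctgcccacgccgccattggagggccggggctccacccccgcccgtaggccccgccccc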

How the data were processed

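Each of the 4 samples came as a gene table with a separate tag list. Each gene's count is a whole number that the authors made by adding the copies of its tags, with single-copy tags dropped, per the file headers and as checked on the values. A deposited column headed TPM held CPM instead, scaled by the authors to the tags seen at least 2 times. It served only as a check of how the files were read, and 0 values departed by more than 0.006 CPM plus 1 ppm. Per the submitters' processing notes the build was Rnor_6.0. For the aligner and annotation release, the version was not given in the sources used here. Gene IDs were joined over the files, and 11247 of 11471 numeric IDs were found in the RefSeq table, from which no coordinates were taken. The other 7486 entries had a UniGene-type identifier alone.

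Counts were scaled to the total of gene counts in a library. Ratios used a prior count of 0.5, and intervals were exact 95% Clopper-Pearson intervals, computed with scipy 1.17.1. A library at 0 took a floor of 3 counts for a printed fold. edgeR 4.0.16 fitted all genes with a mean of at least 10 counts under R 4.3.3, with Benjamini-Hochberg adjustment, and DESeq2 1.42.0 was an alternative. The libraries held 3360368 to 3592019 tags, of which the gene counts were 56.9 to 60.6% of those seen at least 2 times. PCR copies were not marked, so intervals cover counting error only, and a p-value rests on the spread among 3 libraries of unlike days. Swapped tag pairs had at least 50 copies on either side, a pair total of at least 30 in every library and at most 5% of the other form. The procedure was tested on simulated data.

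Members, gene lists and tests were chosen with earlier results of these data known. The rule for named genes took the 15 highest and 15 lowest by their smallest fold with at least 100 counts and an established symbol. It added up to 4 members of each list (2 where none passed), the 5 widest and 5 narrowest spreads, up to 10 genes in unlike directions, and Cdkn1a, Ccng1, Mdm2, Col1a1, Sparc, Krt10, Krt14, Actb, Gapdh, Xist, Eif2s3y, Kdm5d and Ddx3y. Xist was not analysed here. Bax, Dbp, Cry2, Phlda3, Plk3, Cyp51, Idi1, Fos, Arg1, Krt17, LOC683313, Bhlhe41, Tef, Mfap2, Mfap4, Vcan, Postn, the genes at the edge of the rule, the further genes with CACGTG and the cytochrome oxidase entries were singled out after their values were seen. Sele, Milr1 and the muscle genes named only as lower on day 6 alone were singled out in the same way. Alternatives changed the scaling, the tags counted, the count minimum, the fold, the interval, the prior count and the libraries used.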

Additional observations from a re-analysis of the deposited data

Results flagged for a closer look

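In 9 genes named by the rule all 3 later libraries passed the size rule with day 0 on different sides of them, and the difference between days was not tested. The smallest of the 3 folds was 3.67 for Krt9, a keratin gene of thick footpad-type skin, which had 153, 559, 6 and 40 counts on days 0, 3, 6 and 9. It was 2.39 for Sprr1a, a cornified envelope precursor gene with 739, 307, 160 and 2909 counts, so that day 9 alone was higher. For Wfdc18, a secreted protein gene with 611, 299, 1274 and 1432 counts, it was 2.03, and day 3 alone was lower. In the muscle genes Ckmt2, Myot, Tnnt1, Myl1, Tnni2 and Pdlim3 it was 3.59, 2.84, 2.58, 2.36, 2.31 and 2.10, with days 3 and 9 higher and day 6 lower in each.

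Tags listed under no gene were not part of the comparisons above. Of 2518 such tags with enough counts, 110 were higher in all 3 later libraries (4.37%) and 110 were lower, and 8 of the higher ones had 0 copies on day 0.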

How the results depend on the processing

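No paired analysis was possible because each day had 1 library. Counts are given as higher and lower in all 3 later libraries, 133 and 162 as reported. They were 257 and 297 at a minimum of 10 counts, 42 and 49 at 200, and 304 and 322 with none. They were 331 and 495 at a ratio of 1.5 and 31 and 30 at a ratio of 3. On summed later counts they were 712 and 473, a rule that a single library can meet. With 1 later library left out they ranged from 208 to 217 and from 228 to 280, since fewer libraries had to pass. Both counts stayed within 1.5 times under TMM (140 and 152), DESeq2 size factors (139 and 151), the total of all tags (148 and 137), the total without the 20 most abundant genes (149 and 136), the most abundant tag alone (134 and 158, of which 117 and 143 were the same genes), a prior count of 5 (121 and 134) and no interval. They did so too in 3 settings chosen after the data were seen: adding unassigned tags 1 base away (134 and 162), summing swapped tag pairs (133 and 160) and centring by tag GC (164 and 114).

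edgeR called 1 gene higher with TMM, 1 without the 20 most abundant genes, 1 with no filter beyond 1 count, and 2 higher and 1 lower with the most abundant tag alone, while DESeq2 called 48 and 17. edgeR's calls stayed at 0 in the other alternatives and without any 1 later library. Among the named genes 840 values moved by less than the SD of the later libraries and 23 by more, and 1 reversed, Cdkn1a at -0.85 with the most abundant tag alone, because its other form is a separate tag. List medians kept within that spread in 366 cases, moved in 7 and had the other sign in 17. At 50 counts in the higher library, 67 of the higher genes rested on fewer than 50 counts on day 0 and 114 of the lower on fewer than 50 in some later library.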
